A study of Drosophila melanogaster with 30 samples.

Results

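Gene expression was compared between cholesterol-refed and low-cholesterol control larvae of *Drosophila melanogaster*. The libraries were chosen by the genotype and diet in the sample labels, which gave 5 refed and 5 low-cholesterol control libraries, 10 of the 30 libraries in all. Both control groups had the genotype *Tub-GAL80TS/+ Tub-GAL4/+*, in which a temperature-sensitive repressor releases a ubiquitous GAL4 driver at 29 °C and no RNAi transgene is present. The other 20 libraries came from larvae that in addition carried *UAS-Hr3-RNAi/+* (*HR3-RNAi*) or *UAS-Tor-RNAi/+* (*TOR-RNAi*), under the same feeding protocol. By the labels, larvae reared at 18 °C and then at 29 °C were put on food with 1.2 µg/mL cholesterol at 120 h of age. The methods of the study place this transfer some hours later and make the first feeding slightly longer, and the difference could not be settled from the sources. After 10 h by the labels, these late third-instar larvae received fresh food with either 1.2 µg/mL cholesterol (low) or 80 µg/mL cholesterol (refed) for another 10 h. Each library was made from total RNA of 5 pooled whole larvae, so that all tissues were mixed and the labels do not give the sex of the animals. The comparison asks which transcripts responded to the return of the sterol within 10 h.

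Insects cannot make sterols and take cholesterol up from food through the midgut, where Npc1b is required for absorption. Npc2 proteins are small sterol-binding proteins, and Hr96 is a nuclear receptor that controls genes of lipid and cholesterol handling in the gut. The midgut also makes the proteases, amylases and lipases of digestion. The fat body, the counterpart of liver and adipose tissue, stores fat and glycogen and secretes the hexamerin storage proteins of the last larval instar.

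Total counts were between 25695017 and 33510753 in the low-cholesterol libraries and between 19744564 and 29460479 in the refed ones. A level of 3 counts, taken as the limit of detection for counting error alone, was 0.0895 to 0.152 CPM (counts scaled to a common effective library size). All pairs of replicates differed by more than sampling noise. The summed level of *roX1* and *roX2*, RNAs that take part in dosage compensation in males, was 188, 68.1, 93.5, 66.8 and 163 CPM on low cholesterol and 51.8, 10.5, 32.7, 169.9 and 49.9 CPM after refeeding. On the log2 scale it was 1.29 lower on average after refeeding (difference -1.29, two-sided exact permutation test, p = 0.103). The difference was -0.78 without refed replicate 2, and it was -1.78 without refed replicate 4 (exact permutation p = 0.0159). All 12 testis markers tested had a log2 fold change below 0 (median -0.90), and none passed edgeR's quasi-likelihood test adjusted or unadjusted, DESeq2 or limma. Their summed level ranged from 80.8 to 534 CPM on low cholesterol and from 0.239 to 394 CPM after refeeding. The lowest value of each range after refeeding belonged to refed replicate 2, which also had the fewest genes with counts (12537) and the highest summed level of antimicrobial peptide genes. Calls that were lost or gained with the *roX* level as a covariate or without single libraries are therefore given beside many of the results below.

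Of 11374 genes that passed the filter on low counts, 436 (3.83%) changed with refeeding. These genes had an edgeR quasi-likelihood p, Benjamini-Hochberg adjusted over all genes, under 0.05, and the same test is meant by every adjusted p below. A number in brackets ahead of an adjusted p is the log2 fold change of refed over low cholesterol, and levels with ± are means and SD of 5 libraries. A total of 284 genes rose (2.5% of those tested) and 152 fell (1.34%). Counts of calls in the gene lists below stand beside the 3.83% of all tested genes. Counts of genes above 0 stand beside 49.5% of all tested genes. The replicates are pools of larvae, and the p-values measure the spread between such pools. In whole larvae, fewer cells of a type and less RNA per cell cannot be told apart. In 411 of the 436 genes the 5 refed libraries did not overlap the 5 low-cholesterol libraries, compared with 646 of all genes tested (5.68%). The response was made of many small changes around a median log2 fold change of 0.00 over all genes. The median was 0.46 among genes that rose and -0.53 among those that fell. A change of less than 1.5-fold was seen in 180 of the genes that rose and 84 of those that fell, and 47 rose and 27 fell by more than 2-fold. With the *roX* level as a covariate, 306 genes were called (175 up and 131 down), including 267 of the 436. Without refed replicate 2, 374 genes were called, including 337 of the 436. Leaving out refed replicate 3 gave the fewest calls, 289.

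**Figure D1:**
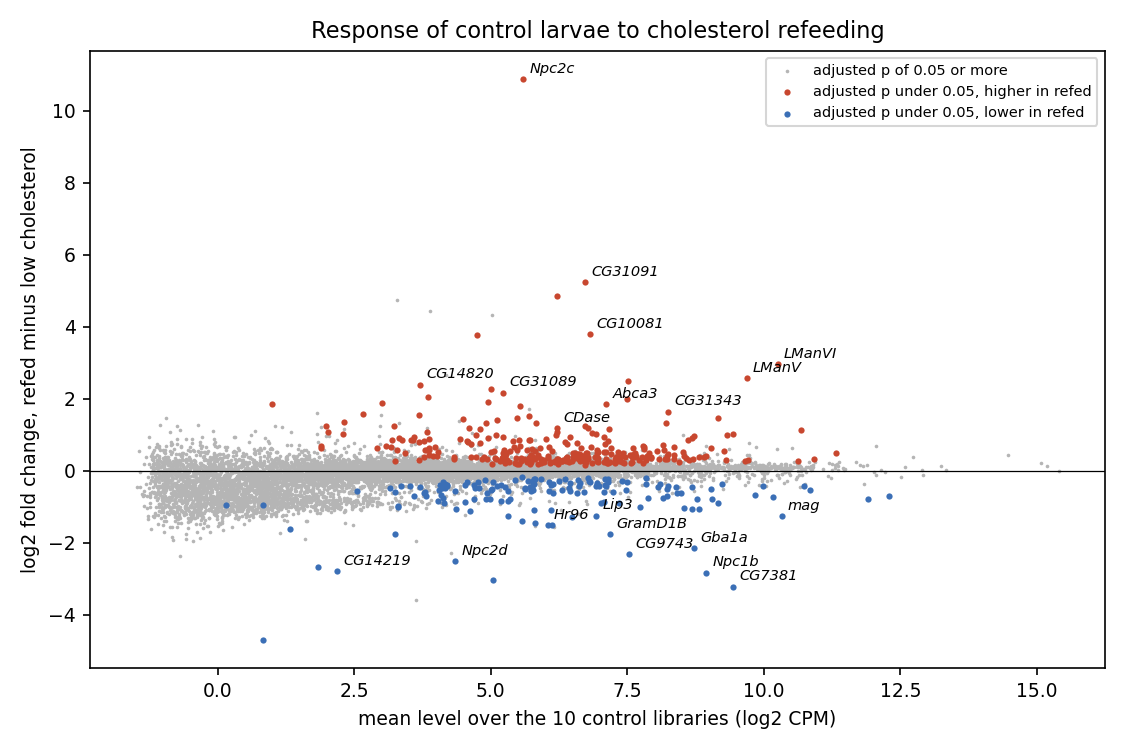
Log2 fold change of refed over low-cholesterol control larvae (vertical axis) against mean log2 CPM over the 10 libraries (horizontal axis) for the 11374 genes tested. Each point is a gene, and colour marks the 284 genes that rose and the 152 that fell at an adjusted p under 0.05. Called genes lie on both sides of 0 at all levels of expression, and most lie close to 0.

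Genes that bind, take up or move sterols changed in both directions. The members of this list and of all lists below were chosen with earlier results of these data known, so list counts are descriptive only. Of the 15 genes listed for these functions, 13 passed the filter on low counts, 2 rose and 4 fell. The median log2 fold change of the 13 was 0.06. *Npc2e* (0 to 7 counts per library) and *CG8112* (no counts) were not tested. The summed level of the list was 1551 to 1871 CPM on low cholesterol and 1003 to 1120.3 CPM after refeeding, without overlap. This fall does not describe the list, since the mean of *Npc1b* alone fell by more CPM than the mean of the sum.

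*Npc1b*, which is required for sterol absorption in the midgut, supplied the largest part of this sum on low cholesterol (FBgn0261675, chromosome X from 20934869 to 20939503). Its level was 821, 940.3, 787, 967 and 816 CPM in the low-cholesterol replicates and 109, 178, 89.8, 96.7 and 137 CPM in the refed ones. Every refed library was below every low-cholesterol library, and refed replicate 2 was the highest of its group (log2 fold change -2.83, standard error 0.183, edgeR adjusted p = 8.84e-06). *Npc2d*, a gene for a predicted sterol-binding protein of the Npc2 family, was likewise lower in all refed libraries (FBgn0037782, chromosome 3R from 10055356 to 10056083). It was measured at 47.4, 28.5, 20.8, 41.5 and 34.2 CPM on low cholesterol and at 6.87, 7.07, 5.19, 4.98 and 5.99 CPM after refeeding (log2 fold change -2.51, standard error 0.216, edgeR adjusted p = 6.8e-05). *Npc2c*, which lies within 5 kb of *Npc2d* on chromosome 3R (10060252 to 10061136), was at or near 0 on low cholesterol and at 109, 95.8, 92.8, 98.7 and 85.4 CPM in the refed replicates (edgeR adjusted p = 2.8e-09). Between these neighbours of the same family, the order of the levels was thus reversed between the diets. Per transcript length, *Npc2d* was at 52.2 ± 15.9 FPKM (SD, n = 5) on low cholesterol, when *Npc2c* was at 0.064 ± 0.0738 FPKM. After refeeding, *Npc2d* was at 9.02 ± 1.41 FPKM and *Npc2c* at 135 ± 13 FPKM. *Fancl*, which adjoins them and has a named role in DNA repair in other animals, also fell (-0.96, edgeR adjusted p = 9.97e-05).

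The other members of the Npc2 family and *Npc1a*, which moves cholesterol out of late endosomes and lysosomes, gave smaller differences or none that passed the test. *Npc1a* was at 67.3 ± 4.12 CPM (SD, n = 5) on low cholesterol and at 72.5 ± 4.17 CPM after refeeding (0.11, edgeR adjusted p = 0.419). *Npc2a*, the broadly expressed partner of Npc1a, was at 67.4 ± 5.66 and 65.9 ± 5.15 CPM (-0.03, edgeR adjusted p = 0.829). *Npc2b* (-0.04, edgeR adjusted p = 0.88), *Npc2f* (0.06, edgeR adjusted p = 0.814) and *Npc2h* (0.23, edgeR adjusted p = 0.427) did not pass the test either. *Npc2g* rose slightly, from 136 ± 11.4 to 172 ± 12.1 CPM (0.34, edgeR adjusted p = 0.0196). This call was lost without low-cholesterol replicate 1, 3 or 5 or refed replicate 1, 2 or 3, and with the *roX* covariate. *Osbp*, for an oxysterol-binding protein that carries sterols between membranes, fell from 148 ± 8.19 to 126 ± 7.12 CPM (-0.24, edgeR adjusted p = 0.0384), and of the 10 fits that left out 1 library only that without low-cholesterol replicate 1 called it. *Start1* (0.13, edgeR adjusted p = 0.476) and *ScpX* (0.32, edgeR adjusted p = 0.107), 2 further genes for sterol-transfer proteins, did not pass.

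*Hr96* was at 95.8, 98.9, 92.9, 106 and 92.7 CPM on low cholesterol and at 37.2, 36.4, 29.9, 32 and 36.8 CPM after refeeding. All 5 refed libraries lay well below the others, with a smaller standard error than for *Npc1b* (log2 fold change -1.50, standard error 0.071, edgeR adjusted p = 1.44e-06). *GramD1B*, whose mammalian homologs move cholesterol from the plasma membrane to the endoplasmic reticulum, was at 215, 243, 205, 229 and 227 CPM and then at 59.5, 76.6, 60.8, 65.9 and 69.4 CPM, again without overlap (FBgn0085423, chromosome 2L from 3358640 to 3373372; log2 fold change -1.75, standard error 0.0782, edgeR adjusted p = 1.4e-06). *GramD1B* was not on the list of sterol genes and is not among its calls. The 7 genes of the mevalonate pathway, which in insects makes isoprenoids but no sterols, did not share the fall of *Hr96* and *GramD1B*. *Hmgs*, for hydroxymethylglutaryl-CoA synthase, was at 94.7 ± 8.27 CPM on low cholesterol and at 102 ± 6.13 CPM after refeeding (0.11, edgeR adjusted p = 0.507). *Fpps*, for farnesyl pyrophosphate synthase, was the only member to pass, and rose (0.43, edgeR adjusted p = 0.00158).

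**Figure D2:**
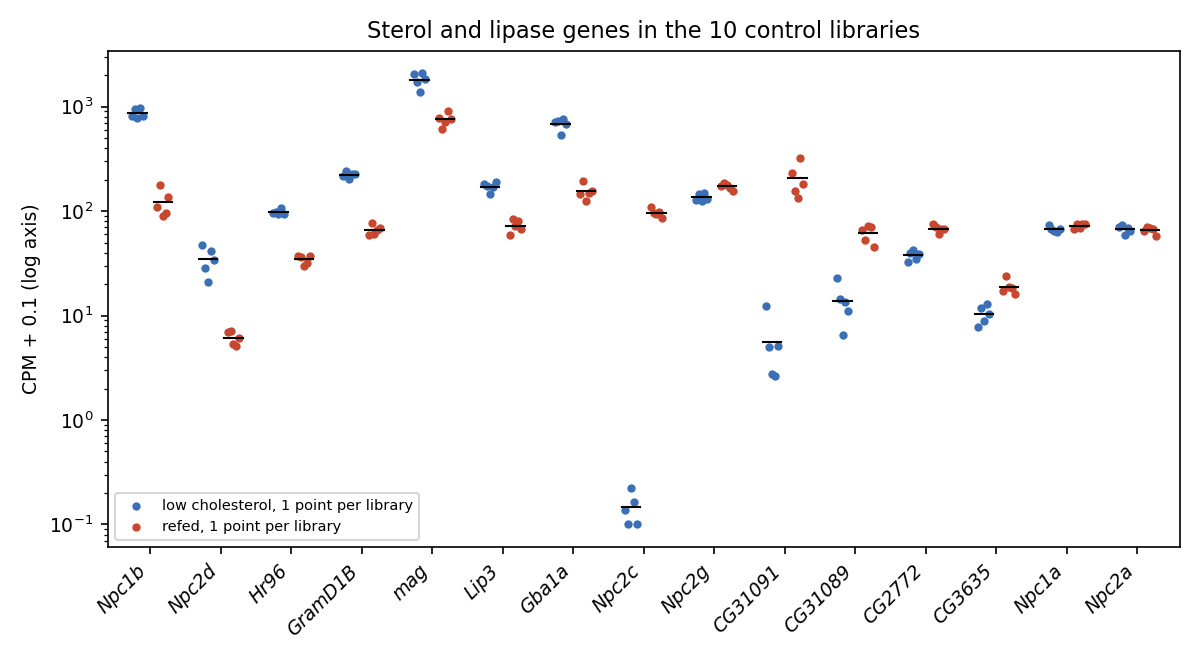
Level of genes for sterol handling and lipases in each control library, in CPM plus 0.1 on a log axis. Points are the 5 low-cholesterol and the 5 refed libraries. *Npc1b*, *Npc2d*, *Hr96*, *GramD1B*, *mag*, *Lip3* and *Gba1a* are lower and *Npc2c*, *CG31091*, *CG31089*, *CG2772* and *CG3635* higher in all refed libraries, while *Npc1a* and *Npc2a* overlap.

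Acid lipases split in the same way. Of 19 listed genes 9 were tested, 3 rose, 2 fell and the median was 0.00. *mag*, for a gastric lipase that digests dietary fat and also cleaves cholesterol esters in the midgut, was at 2048, 1714, 1382, 2087 and 1833 CPM on low cholesterol and at 774, 614, 709.6, 915 and 755 CPM after refeeding. The groups did not overlap (log2 fold change -1.27, standard error 0.131, edgeR adjusted p = 0.00025). *Lip3*, for a lipase known for its rise on starvation, fell from 172 ± 16.1 to 72.5 ± 10.2 CPM (-1.24, edgeR adjusted p = 5.07e-05). The annotated lipase gene *CG31091* rose from 5.46 ± 3.9 to 205 ± 74.2 CPM, with the lowest refed library (134 CPM) above the highest low-cholesterol library (12.1 CPM). *CG31089*, its neighbour on chromosome 3R (both between 25899903 and 25904178), was not on the list and rose as well, from 23, 14.4, 6.38, 13.4 and 11 CPM to 66.5, 53, 71.4, 71 and 44.9 CPM (2.17, edgeR adjusted p = 0.00132). *CG2772* (0.85, edgeR adjusted p = 0.000133) and *CG3635* (0.88, edgeR adjusted p = 0.00775), also of the acid-lipase family, rose less. *CG8093*, the second most abundant member by FPKM on low cholesterol, was at 611 ± 68 and 617 ± 41.4 CPM and did not pass the test (0.01, edgeR adjusted p = 0.947). The 5 calls held without any 1 library and with the *roX* covariate.

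Genes of sphingolipid metabolism and lipid transporters were grouped after their values had been seen. Sphingolipids are built on a long-chain base and share membranes and lysosomes with sterols. Of 12 sphingolipid genes tested, 4 rose and 3 fell, with a median log2 fold change of 0.13. *Gba1a*, for a glucocerebrosidase, which removes glucose from glucosylceramide, was at 714, 732, 541, 763 and 676 CPM on low cholesterol and at 147, 196, 125, 148 and 157 CPM after refeeding. It did not overlap between the diets (FBgn0051148, chromosome 3R from 23700621 to 23702605; log2 fold change -2.15, standard error 0.128, edgeR adjusted p = 5.28e-06). *CDase*, whose product cleaves ceramide, rose in all refed libraries, from 45.7, 52.3, 42.3, 38.7 and 47 CPM to 108, 103, 97.4, 108 and 102 CPM (1.20, edgeR adjusted p = 8.21e-06). *egh*, for a mannosyltransferase that extends glycosphingolipids, rose from 47.6 ± 2.41 to 101 ± 15.2 CPM (1.09, edgeR adjusted p = 7.73e-05), and *Sply*, for the lyase that ends sphingolipid breakdown, from 151 ± 13.7 to 236 ± 22.2 CPM (0.64, edgeR adjusted p = 0.00105). The ceramide synthase gene *schlank* (-0.27, edgeR adjusted p = 0.042) and the dihydroceramide desaturase gene *ifc* (-0.35, edgeR adjusted p = 0.0166), both of ceramide synthesis, fell slightly. The calls for *schlank* and for the alkaline ceramidase gene *bwa* (0.58, edgeR adjusted p = 0.0498) were lost in 8 and 9 of the 10 fits that left out 1 library, and that for *ifc* without refed replicate 3.

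Receptors of the CD36 family, which bind lipids at the cell surface, also moved in both directions, with 2 of 13 rising and 2 falling. *crq*, known as a receptor of hemocytes for dead cells, rose from 101, 84.7, 75.9, 93.3 and 87 CPM to 204, 177, 205, 221 and 184 CPM (1.17, edgeR adjusted p = 2e-05). It was the only one of 8 hemocyte markers tested that passed, and the median of the 8 was 0.10. *ninaD*, needed for the uptake of carotenoids from food, fell from 499 ± 136 to 245 ± 33.1 CPM (-1.03, edgeR adjusted p = 0.00916), and *pes* fell from 173 ± 15.5 to 94.7 ± 6.21 CPM (-0.87, edgeR adjusted p = 4.83e-05). Among 21 tested ABC transporters of the A, B, C and G classes, 3 rose and 1 fell. *Abca3* rose from 62.1, 54, 53.8, 73.2 and 57 CPM on low cholesterol to 214, 224, 206, 189 and 249 CPM after refeeding, without overlap (log2 fold change 1.85, standard error 0.101, edgeR adjusted p = 3.57e-06). *Atet*, implicated in the trafficking of ecdysone, rose from 32.7 ± 1.48 to 59 ± 3.87 CPM (0.85, edgeR adjusted p = 8.84e-06), and *CG9663* fell from 55.8 ± 5.03 to 23.4 ± 4.35 CPM (-1.25, edgeR adjusted p = 0.000135). *CG9743*, annotated as an acyl-CoA desaturase, was at 264, 342, 302, 316 and 314 CPM and then at 54.1, 79.8, 54.9, 49.4 and 71.5 CPM and thus fell in all refed libraries (log2 fold change -2.31, standard error 0.137, edgeR adjusted p = 5.28e-06). *Desat1*, a further desaturase gene, did not pass (0.04, edgeR adjusted p = 0.794).

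The lysosomal alpha-mannosidase genes, for enzymes that trim mannose from glycoproteins, lie in 2 blocks on chromosome 2L and were also grouped after their values had been seen. All 6 tested members rose, their median log2 fold change was 2.13, and their summed level was 692 to 887 CPM on low cholesterol and 3300.3 to 5804 CPM after refeeding. *LManVI* was at 279, 283, 288, 234 and 299.9 CPM on low cholesterol and 2424, 1625, 1661, 2917 and 2180.0 CPM after refeeding (log2 fold change 2.96, standard error 0.167, edgeR adjusted p = 3.98e-06). *LManV* was at 238, 227, 235, 201 and 286 CPM and then at 1617, 1065, 1063, 1835 and 1471 CPM (2.57, edgeR adjusted p = 9.64e-06). In both genes refed replicates 2 and 3 were the lowest of the refed group and still far above every low-cholesterol library. *LManIII* (1.34, edgeR adjusted p = 0.00297) and *LManIV* (2.27, edgeR adjusted p = 0.00105) lie in the same block, from 8765273 to 8781252. *LManI* (1.91, edgeR adjusted p = 1.78e-06) and *LManII* (1.99, edgeR adjusted p = 5.28e-06) form the second block, from 10452677 to 10462472. These are paralogs, and reads that match several of them may have been split or dropped in counting, so the share of each gene is uncertain. The 6 calls held without any 1 library.

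Peptidase genes, grouped after the fact in the same way, also rose with several members. Of 10 tested peptidases of the M28 family, which remove single amino acids or small peptides from protein ends, 5 rose and none fell (median 0.51). *CG10081* was at 21.4, 13.8, 8.79, 16.7 and 14.4 CPM on low cholesterol and at 244, 158, 112, 249.7 and 285 CPM after refeeding (log2 fold change 3.81, standard error 0.305, edgeR adjusted p = 4.13e-05). *CG10073* was at 80.2, 54.8, 25.9, 59.8 and 53.1 CPM and then at 487, 213, 216, 189 and 451 CPM (2.51, edgeR adjusted p = 0.00252), and *CG10062* rose less (0.63, edgeR adjusted p = 0.00877). These 3 genes are adjacent paralogs on chromosome 2R (19375313 to 19389318), and the same caution on shared reads applies. Low-cholesterol replicate 3 was the lowest of its group for both *CG10081* and *CG10073*, and no library of one diet reached the other. The calls for *CG33012* and *CG30043* were lost in 6 and 8 of the 10 fits without 1 library, which left 3 to 5 calls in the family. *CG14820*, a predicted metallocarboxypeptidase gene, rose from 3.54, 5.15, 4.79, 5.08 and 2.2 CPM to 20.2, 27.7, 23.4, 20.5 and 17.9 CPM (2.40, edgeR adjusted p = 0.000103).

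Of 15 tested aminopeptidases of the M1 family, 4 rose and 1 fell. *CG31343* rose from 141, 149, 144, 187 and 114 CPM to 417, 505, 410.0, 508 and 459 CPM without overlap (log2 fold change 1.65, standard error 0.123, edgeR adjusted p = 2.33e-05). Its neighbour *CG31233* rose from 453 ± 41 to 925 ± 122 CPM (1.03, edgeR adjusted p = 0.000133). A second adjacent pair on the same chromosome arm, *CG8774* (0.73, edgeR adjusted p = 0.00105) and *CG32473* (0.40, edgeR adjusted p = 0.00206), also rose. *CG42335* fell from 51.2 ± 8.67 to 28.7 ± 8.56 CPM (-0.83, edgeR adjusted p = 0.0415), but among the fits without 1 library it was called only without refed replicate 2 or 5. The summed level of the family was 2531 to 2915 CPM on low cholesterol and 3667 to 4418 CPM after refeeding.

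**Figure D3:**
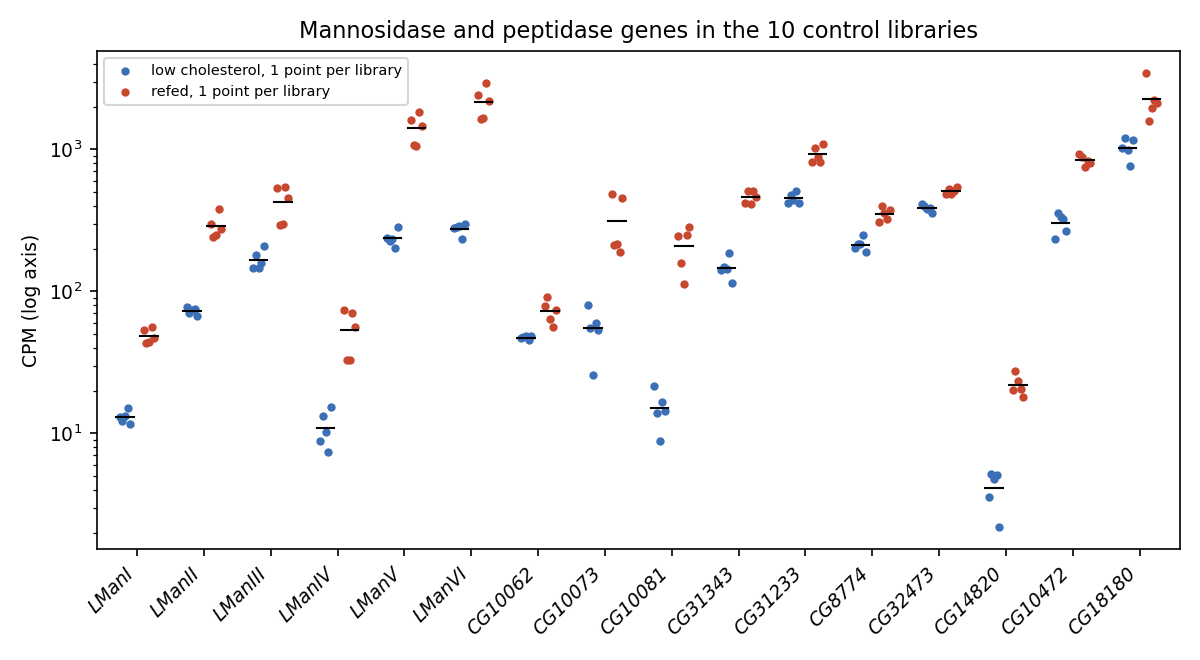
Level of lysosomal alpha-mannosidases and peptidases in each control library, in CPM on a log axis. Points are the 5 low-cholesterol and the 5 refed libraries. All 6 *LMan* genes and the peptidase genes shown are higher in all refed libraries, from 0.40 for *CG32473* to 3.81 for *CG10081* on the log2 scale.

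Secreted digestive serine proteases of the Jonah list were measured slightly higher after refeeding. All 18 tested Jonah and related proteases had a log2 fold change above 0, compared with 49.5% of all genes, and the median was 0.31, but only 2 passed the test. Their summed level was 18687 to 25979 CPM on low cholesterol and 24480.2 to 28182 CPM after refeeding, so that the groups overlapped. *Jon65Aiii* was at 2317, 2107, 1808, 2308 and 2002 CPM and then at 2825, 2815, 3051, 3281 and 3042 CPM (log2 fold change 0.51, standard error 0.0809, edgeR adjusted p = 0.00477). *Jon44E* rose from 279 ± 44.4 to 503 ± 129 CPM (0.85, edgeR adjusted p = 0.0202), a call that 5 of the 10 fits without 1 library kept. Between 1 and 4 members of the family were called in those fits. Among 11 trypsins, *iotaTry* (0.70, edgeR adjusted p = 0.00406) and *zetaTry* (0.49, edgeR adjusted p = 0.0105) rose, while *deltaTry* (0.21, edgeR adjusted p = 0.381) and *epsilonTry* (-0.06, edgeR adjusted p = 0.689) did not pass. Of the trypsins 7 were above 0 and 4 below. Their summed level overlapped, at 3344 to 4182 CPM on low cholesterol and 3615 to 4140 CPM after refeeding. Of genes singled out after their values were seen, the serine protease *CG10472* rose from 303 ± 50.6 to 838 ± 65.1 CPM (1.47, edgeR adjusted p = 3.21e-05). *CG18180*, another predicted serine protease, rose from 1029 ± 174 to 2269 ± 691 CPM (1.14, edgeR adjusted p = 0.00769). It lies within *fry*, which fell, and the strand setting of the counting is not given in the sources used here.

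Carbohydrate digestion changed gene by gene. Of 13 tested amylases and maltases, 2 rose and 3 fell (median 0.00). *Amy-d* was at 327, 310.2, 253, 247 and 274 CPM on low cholesterol and at 738, 480.0, 482, 650.0 and 439.6 CPM after refeeding (0.98, edgeR adjusted p = 0.00388). *Amy-p*, its nearly identical neighbour, rose from 253 ± 44.7 to 403 ± 64.8 CPM (0.67, edgeR adjusted p = 0.0189), and the division of reads between these 2 alpha-amylase genes is uncertain. The *Amy-p* call was lost without low-cholesterol replicate 2, 3 or 5 or refed replicate 1. *tobi*, an alpha-glucosidase gene known as a target of insulin-like signals from the brain, fell from 784, 724, 673, 769 and 774 CPM to 398, 330.3, 403, 411 and 464 CPM, without overlap (log2 fold change -0.89, standard error 0.0854, edgeR adjusted p = 0.000142). The maltase gene *Mal-A4* fell from 1437 ± 249.6 to 869.6 ± 83.2 CPM (-0.72, edgeR adjusted p = 0.00758), and the amylase-related gene *Amyrel* from 431 ± 67.4 to 284 ± 41.8 CPM with overlapping groups (-0.60, edgeR adjusted p = 0.0256). Only 2 of the 10 fits without 1 library kept *Amyrel*. The maltase genes *Mal-A1* (-0.26, edgeR adjusted p = 0.403) and *Mal-A3* (0.13, edgeR adjusted p = 0.597) did not pass.

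Sugar transporters and chitin genes, again grouped after the fact, held further changes. *Glut1* rose from 16.9, 14.6, 18.2, 18.5 and 17.1 CPM to 40.1, 40.5, 36.3, 34.9 and 41 CPM (1.17, edgeR adjusted p = 8.21e-06), *sut1* from 102 ± 9.21 to 181 ± 11.6 CPM (0.83, edgeR adjusted p = 7.38e-05), and the trehalose transporter gene *Tret1-1* from 81.3 ± 8.18 to 112 ± 14.9 CPM (0.46, edgeR adjusted p = 0.0279), out of 7 tested. The *Tret1-1* call was kept in 5 of the 10 fits without 1 library and lost with the *roX* covariate. Their summed level was 182 to 226 CPM on low cholesterol and 310.1 to 374 CPM after refeeding. *Chs2*, the chitin synthase gene of the midgut lining, rose from 13.9, 15.4, 16.6, 13.2 and 14.8 CPM to 36.7, 35.2, 31.9, 29.7 and 33.9 CPM (1.18, edgeR adjusted p = 9.64e-06). The chitinase genes *Cht4* (-1.49, edgeR adjusted p = 0.00622), *Cht9* (-1.10, edgeR adjusted p = 0.0113) and *Cht6* (-0.57, edgeR adjusted p = 0.00394) fell, and *Cht4* and *Cht9* are neighbours on chromosome 2R (21065379 to 21069286). Low-cholesterol replicate 1, at 50.1 CPM of *Cht4*, was close to the highest refed library at 42.2 CPM.

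Gut cell types and regions other than these families gave few calls. No member of the lists of gut lysozymes, mucins and peritrophins, enteroendocrine peptides or Malpighian tubule markers passed edgeR's adjusted test (39 tested genes, 8 at an unadjusted p under 0.05, 2 by DESeq2, 0 by limma). Without low-cholesterol replicate 1, 1 gene of the mucins and peritrophins rose and 1 fell, and without low-cholesterol replicate 4 a gut lysozyme and a tubule marker rose. Alkaline phosphatase genes, several of which are active in gut and tubule, were grouped after their values had been seen. They gave 3 calls in 9. *Alp9* (0.66, edgeR adjusted p = 0.0116) and its neighbour *Alp10* (0.50, edgeR adjusted p = 0.0333) rose and *Alp12* fell (-0.50, edgeR adjusted p = 0.00502). The *Alp10* call was lost with the *roX* covariate and in 7 of the 10 fits without 1 library.

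Fat body markers had a higher summed level after refeeding, although only 1 of 12 passed edgeR's adjusted test (3 by DESeq2). Their summed level was 79637 to 106480.0 CPM on low cholesterol and 109918 to 119990.0 CPM after refeeding. As a share of the counts of all tested genes it was 8.4% to 11.2% and 10.8% to 11.6%, so that the shares of the diets overlapped. Hexamerins made up most of this sum. *Lsp1alpha* was at 18259.6, 21149, 14873, 21648 and 19186 CPM and then at 27408, 27904, 27289.6, 21005 and 26656 CPM, and its groups overlapped (log2 fold change 0.45, standard error 0.119, edgeR adjusted p = 0.0675). *Lsp1beta* was at 31745 ± 3504 and 37251 ± 1178 CPM (0.23, edgeR adjusted p = 0.229), and *Lsp1gamma* at 35266 ± 4993 and 39133 ± 1524 CPM (0.15, edgeR adjusted p = 0.535). *Fbp1*, the gene for the hexamerin receptor, was the member that passed, at 6.01, 1.67, 1.06, 12.5 and 3.26 CPM and 82.6, 21.1, 562, 33.6 and 15.8 CPM (edgeR adjusted p = 0.0456). Refed replicate 3 stood far above the other refed libraries, and the call was lost without low-cholesterol replicate 1, 2, 3 or 5 or refed replicate 1 or 3, with the *roX* covariate, with limma and in the fit of all 30 libraries. Without refed replicate 4, 3 of the markers were called. *apolpp*, the lipophorin precursor gene that carries lipids in the hemolymph, did not pass (-0.02, edgeR adjusted p = 0.903).

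**Figure D4:**
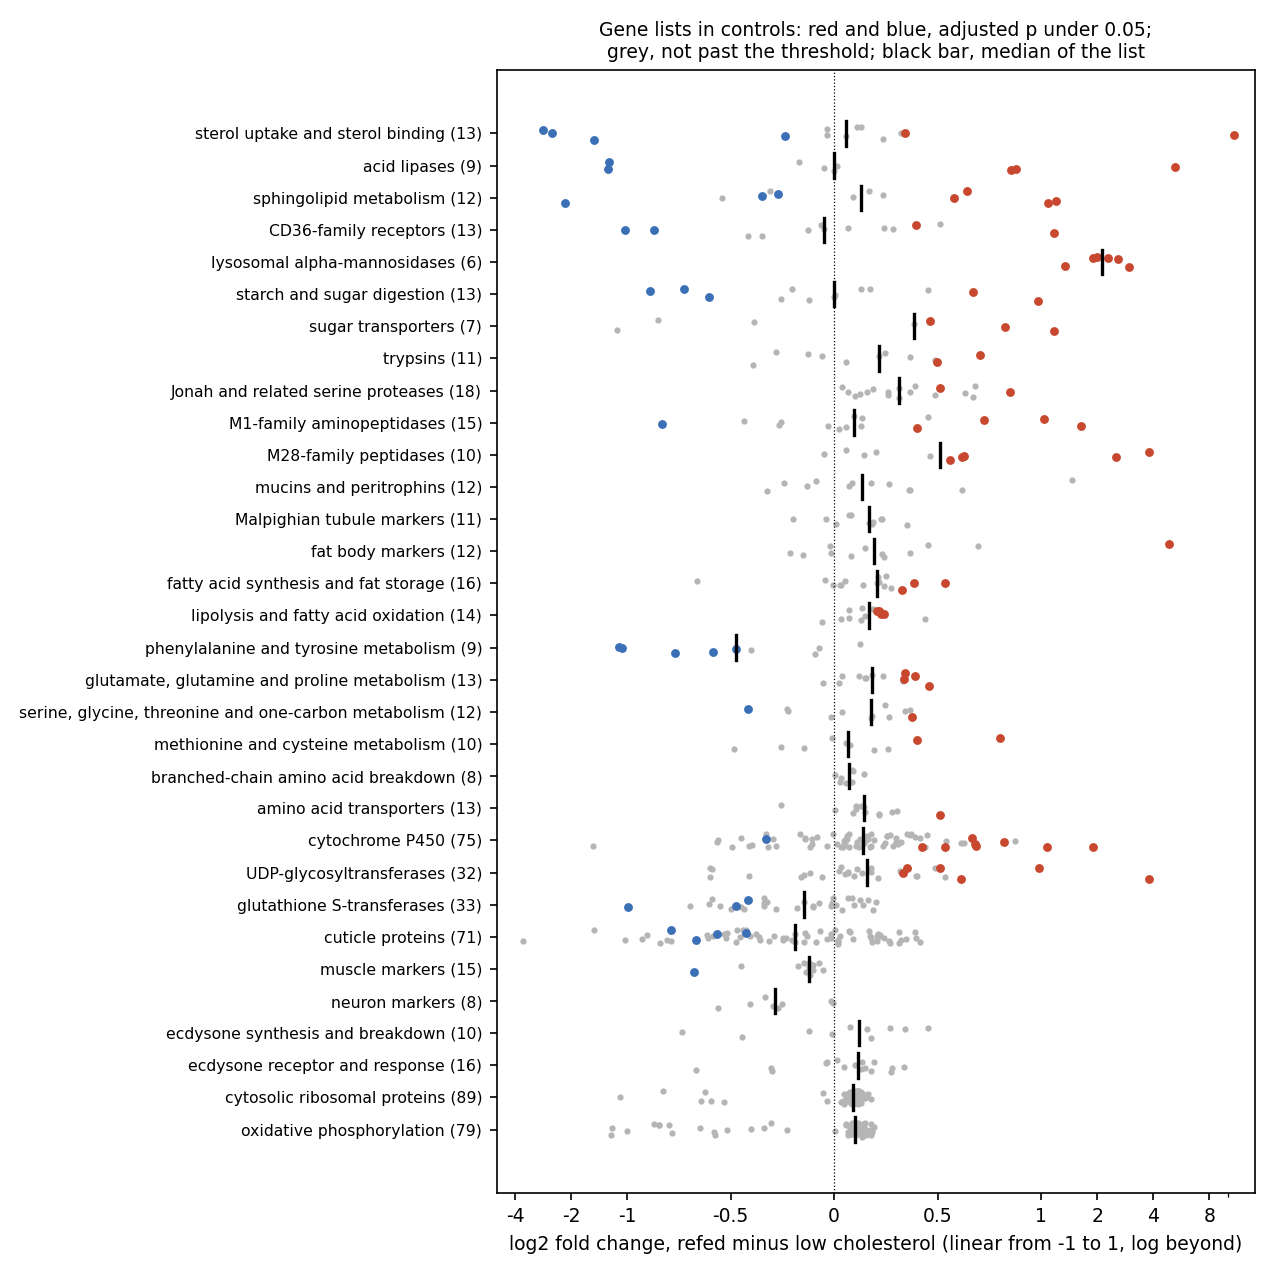
Log2 fold change of refed over low-cholesterol control larvae for the tested members of 32 gene lists (horizontal axis, linear between -1 and 1 and logarithmic beyond). Each point is a gene, each black bar the median of a list, and the number tested stands in brackets. The alpha-mannosidases have the median furthest to the right, although single genes of other lists lie beyond them. Jonah proteases lie wholly above 0, and tyrosine metabolism lies mostly below 0.

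Some genes of fat storage and of fat oxidation rose by small amounts. Of 16 genes of fatty acid synthesis and storage, 3 rose and none fell by edgeR's adjusted test, and 13 had a log2 fold change above 0 (median 0.21). The 3 were *Agpat3*, 0.53, edgeR adjusted p = 0.00023, *Lpin*, 0.33, edgeR adjusted p = 0.0129, and *Gpat4*, 0.39, edgeR adjusted p = 0.0174, for 3 enzymes on the glycerolipid pathway from glycerol phosphate to diacylglycerol. *Agpat3* was at 128, 136, 125, 140.0 and 128 CPM and then at 198, 181, 180.2, 186 and 207 CPM, without overlap. *Lpin* overlaps *kermit*, which rose too, so that reads may be shared. The fatty acid synthase gene, listed as *CG3523*, was at 3005 ± 352 and 3556 ± 355 CPM and did not pass (0.24, edgeR adjusted p = 0.272), and neither did *ATPCL* (-0.04, edgeR adjusted p = 0.789), which supplies acetyl-CoA. Only *Agpat3* of the 3 kept its call with the *roX* covariate, and the call for *Gpat4* was lost without low-cholesterol replicate 1, 3 or 5 or refed replicate 1 or 5. By DESeq2, and in the edgeR fit of all 30 libraries, 1 gene of the list fell.

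Of 14 genes of lipolysis and fatty acid oxidation, 4 rose and 13 were above 0 (median 0.17). *CPT2* (0.22, edgeR adjusted p = 0.0116), *Mtpbeta* (0.24, edgeR adjusted p = 0.0125), *Etf-QO* (0.21, edgeR adjusted p = 0.0126) and *Mtpalpha* (0.22, edgeR adjusted p = 0.032) act in mitochondrial beta-oxidation, and *Mtpalpha* overlaps *brwl*, which fell. *CPT2* was at 57.6, 57.6, 53.5, 57.6 and 52.9 CPM on low cholesterol and at 63.9, 65.4, 64.9, 64.8 and 65.5 CPM after refeeding, without overlap but with a small difference. None of the 4 kept its call with the *roX* covariate, and without low-cholesterol replicate 1 or 3 or refed replicate 1, 3 or 5 only 1 of the list was called. Of 10 genes of gluconeogenesis, glycogen and trehalose metabolism, *UGP* (0.25, edgeR adjusted p = 0.0132) and *AGBE* (0.32, edgeR adjusted p = 0.0163), which both feed glycogen synthesis, rose. Both calls were lost with the *roX* covariate and in at least 5 of the 10 fits that left out 1 library, and neither was called in the fit of all 30 libraries. The 13 glycolysis genes held no call by edgeR's adjusted test (2 at an unadjusted p under 0.05, 1 by DESeq2, 0 by limma), and 1 without low-cholesterol replicate 4.

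Amino-acid metabolism was divided by pathway. Of 9 tested genes of phenylalanine and tyrosine metabolism, 5 fell and none rose (median -0.47). Their summed level was 353 to 469 CPM on low cholesterol and 281 to 329 CPM after refeeding, without overlap. The 5 genes act in sequence in tyrosine breakdown to fumarate. *Tat*, for tyrosine aminotransferase, was at 32.1, 34.6, 35, 46.2 and 42.4 CPM on low cholesterol and at 21.2, 28, 17, 22.4 and 23.1 CPM after refeeding (log2 fold change -0.77, standard error 0.137, edgeR adjusted p = 0.00916). *Hpd*, for the next enzyme, was at 85.2, 53.8, 71, 134 and 124 CPM and then at 55.3, 32, 39.7, 42.4 and 49.1 CPM, with overlapping groups (log2 fold change -1.10, standard error 0.247, edgeR adjusted p = 0.0327). *hgo*, for the enzyme that opens the ring, fell in all refed libraries, from 27.6 ± 5.58 to 13.2 ± 2.71 CPM (-1.07, edgeR adjusted p = 0.00424). *GstZ2* (-0.47, edgeR adjusted p = 0.00323) and *Faa* (-0.59, edgeR adjusted p = 0.0227) encode the last steps. *Hn*, which makes tyrosine from phenylalanine, was at 158 ± 20.7 and 148 ± 12.5 CPM (-0.09, edgeR adjusted p = 0.638), and *ple*, which starts dopamine synthesis from tyrosine, was at 18.5 ± 3.25 and 17.6 ± 4.72 CPM (-0.07, edgeR adjusted p = 0.851), so neither passed. Between 3 and 5 of the genes were called when 1 library was left out, with 3 left without low-cholesterol replicate 4 or refed replicate 2, 3, 4 or 5. With the *roX* covariate 3 remained significant (*GstZ2*, *hgo* and *Tat*), and the fit of all 30 libraries called 2.

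In glutamate, glutamine and proline metabolism some genes rose. Of 13 tested genes 4 rose, none fell and 12 were above 0 (median 0.18), and the summed level was 3838 to 4429.6 CPM on low cholesterol and 4647 to 5257 CPM after refeeding. *Gdh*, for glutamate dehydrogenase, was at 1658, 1784, 1656, 1862 and 1630.0 CPM and then at 2096, 2175, 2205, 2014 and 2375 CPM (log2 fold change 0.34, standard error 0.0636, edgeR adjusted p = 0.0124). *Got1*, an aspartate aminotransferase gene (0.34, edgeR adjusted p = 0.00807), *P5CS*, which starts proline synthesis (0.46, edgeR adjusted p = 0.00383), and *Gs2*, for glutamine synthetase (0.39, edgeR adjusted p = 0.0291), rose as well. The calls for *Gdh* and *Gs2* were lost with the *roX* covariate and without low-cholesterol replicate 3 or refed replicate 1, 3 or 5, which left 2 calls. *P5CS* and *Got1* kept their calls without any 1 library.

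In the methionine and cysteine list, the neighbouring genes *CG10621* and *Bhmt*, both for predicted homocysteine methyltransferases on chromosome 2L, were the 2 calls out of 10. *CG10621* rose from 58.8, 50.8, 63.9, 61.7 and 66 CPM to 116, 109, 98.6, 115 and 85 CPM without overlap (log2 fold change 0.80, standard error 0.0974, edgeR adjusted p = 0.000814). *Bhmt* rose from 33.1 ± 0.69 to 43.7 ± 6.84 CPM (0.40, edgeR adjusted p = 0.0426), but 9 of the 10 fits without 1 library lost it. *Sam-S*, which makes the methyl donor S-adenosylmethionine, did not pass (-0.01, edgeR adjusted p = 0.947). In the serine, glycine, threonine and one-carbon list, *pug*, which interconverts folate forms, rose (0.38, edgeR adjusted p = 0.00877), and *CG6287*, which encodes the first enzyme of serine synthesis, fell (-0.42, edgeR adjusted p = 0.00877). The *pug* call was lost with the *roX* covariate, and without refed replicate 4, 3 genes of the list rose. All 8 tested genes of branched-chain amino acid breakdown were above 0 by little (median 0.07), with no call by edgeR's adjusted test (1 at an unadjusted p under 0.05, 0 by DESeq2, 0 by limma). Of 13 amino acid transporters 12 were above 0, and *sbm* alone passed, at 114 ± 15 and 162 ± 12.9 CPM (0.51, edgeR adjusted p = 0.00934). The *sbm* call was 7.69% of the list, beside 3.83% of all tested genes, and the fit of all 30 libraries did not call *sbm*.

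**Figure D5:**
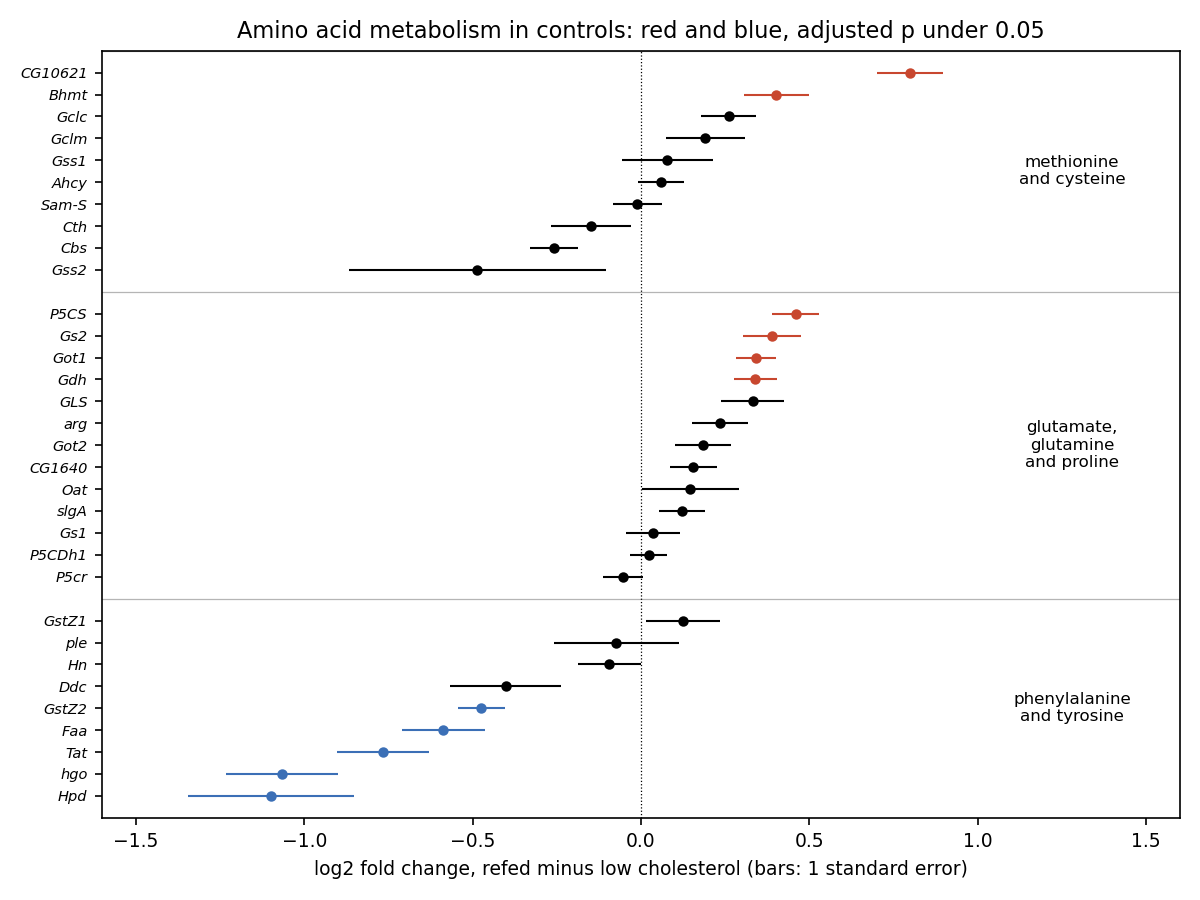
Log2 fold change of refed over low-cholesterol control larvae, with bars of 1 standard error, for genes of methionine and cysteine, glutamate, glutamine and proline, and phenylalanine and tyrosine metabolism. Genes of tyrosine breakdown lie below 0 and most genes of glutamate and proline metabolism above 0.

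Detoxification families were divided as well. Of 75 cytochrome P450 genes tested 8 rose and 1 fell, with 54 above 0 (median 0.14). *Cyp6t1* rose from 3.54, 3.33, 2.35, 5.34 and 2.55 CPM to 11.4, 11.3, 15.6, 12.2 and 12.8 CPM (1.89, edgeR adjusted p = 0.00046), *Cyp316a1* from 2.59 ± 0.634 to 5.44 ± 0.837 CPM (1.07, edgeR adjusted p = 0.00807) and *Cyp311a1* from 9.87 ± 1.26 to 17.4 ± 1.35 CPM (0.82, edgeR adjusted p = 0.000544). *Cyp6d5* rose from 102 ± 13.4 to 147 ± 16.1 CPM (0.53, edgeR adjusted p = 0.0116). Of the P450 genes, 0 to 2 fell in the fits without 1 library. Of 32 UDP-glycosyltransferases, which attach sugars to small lipophilic molecules, 6 rose and none fell (median 0.16). *Ugt37A1* was at 2.4, 6.4, 3.91, 1.61 and 3.86 CPM and then at 82, 59.1, 26.9, 10.5 and 70.6 CPM, with refed replicate 4 lowest yet above every low-cholesterol library (log2 fold change 3.77, standard error 0.563, edgeR adjusted p = 0.0033). *Ugt302C1* rose from 177 ± 25.4 to 271 ± 26.4 CPM (0.61, edgeR adjusted p = 0.00775). The 33 glutathione S-transferases leaned the other way, with 3 falling, none rising and 23 below 0 (median -0.14). *GstD10* was at 329.6, 256, 188, 414 and 233 CPM on low cholesterol and at 154, 141, 160.2, 124 and 134 CPM after refeeding (edgeR adjusted p = 0.0126). The third beside *GstZ2*, *GstT3*, was called in 1 of the 10 fits without 1 library (-0.42, edgeR adjusted p = 0.0498). Without low-cholesterol replicate 3, and in the fit of all 30 libraries, 5 of the family fell.

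Steroid hormone and growth signalling genes gave few calls. The 26 tested genes of ecdysone synthesis, breakdown and response held no call by edgeR's adjusted test (4 at an unadjusted p under 0.05, 2 by DESeq2, 0 by limma). None of 15 insulin signalling genes passed (2 at an unadjusted p under 0.05, 1 by DESeq2, 0 by limma). Without refed replicate 1, edgeR called 1 gene of ecdysone response and 1 of insulin signalling. *InR*, the insulin receptor gene, was not matched to a feature by symbol and is not in this count, and *phm*, of ecdysone synthesis, was listed as *phtm* and was outside the list (-0.18, edgeR adjusted p = 0.619). Of 17 TOR pathway genes, 14 were above 0, compared with 49.5% of all tested genes. *Sesn*, an inhibitor of TOR complex 1, alone was called (0.27, edgeR adjusted p = 0.0284), in 3 of the 10 fits without 1 library. The *Sesn* call was 5.88% of the list, near the 3.83% of all tested genes. *Tor* itself, listed as *mTor*, was among the 17 and did not pass (0.04, edgeR adjusted p = 0.721), and *Mio* was not matched. Genes that serve growth in every cell were mostly measured slightly higher in CPM, without passing. Of 342 genes for cytosolic and mitochondrial ribosomal proteins, oxidative phosphorylation, the proteasome, the vacuolar ATPase and aminoacyl-tRNA synthetases, 282 were above 0, and none was called by edgeR's adjusted test (23 at an unadjusted p under 0.05, 4 by DESeq2, 0 by limma). Without low-cholesterol replicate 2, 1 vacuolar ATPase gene rose. The median was 0.09 for cytosolic and 0.08 for mitochondrial ribosomal protein genes. The summed CPM of all tested genes also had a higher mean after refeeding. As a mean share of the counts of all tested genes, the cytosolic list was at 9.09% on low cholesterol and 9.28% after refeeding. The mitochondrial list was at 0.165% and 0.167%, tRNA synthetases at 0.211% and 0.213%, and oxidative phosphorylation at 2.00% and 2.08%. The vacuolar ATPase share was higher too, and the proteasome share was lower, at 0.348% and 0.341%. In each list the shares of the diets overlapped. Antimicrobial peptides and peptidoglycan recognition proteins gave no call in 22 genes by edgeR (3 at an unadjusted p under 0.05, 0 by DESeq2, 0 by limma), and 1 with the *roX* covariate. The lists of salivary gland markers, DNA replication genes and odorant-binding proteins (5, 10 and 18 tested) held none by edgeR's adjusted test, DESeq2 or limma (2, 1 and 1 at an unadjusted p under 0.05).

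Muscle and nervous system markers lay below 0, as did 44 of 71 cuticle protein genes. All 15 muscle markers had a negative log2 fold change (median -0.12), and *bt*, for the giant muscle protein projectin, passed, at 955, 1121, 1364, 1150.3 and 1018 CPM and 670.2, 523, 823, 745 and 741 CPM (-0.68, edgeR adjusted p = 0.0129). The *bt* call, 6.67% of the list beside 3.83% of all tested genes, was lost without refed replicate 1 and with the *roX* covariate. All 8 neuron markers were below 0 (median -0.28) without a call by edgeR (4 at an unadjusted p under 0.05, 1 by DESeq2, 0 by limma). With the *roX* covariate, and without refed replicate 2, 2 of them fell. Of the 71 cuticle protein genes, 27 were above 0, 4 fell, none rose by edgeR's adjusted test and the median was -0.19. *Lcp65Ab2*, which has a near-identical copy, fell from 552 ± 124 to 319.9 ± 49.2 CPM (-0.79, edgeR adjusted p = 0.0166), a call lost without refed replicate 3. *Cpr49Af* (-0.56, edgeR adjusted p = 0.0143), *Pcp* (-0.67, edgeR adjusted p = 0.0111) and *Lcp2* (-0.43, edgeR adjusted p = 0.0379) fell too, and 2 to 7 cuticle genes were called when 1 library was left out. With the *roX* covariate *Cpr49Af*, *Pcp* and *Lcp2* lost their calls, and the fit of all 30 libraries called no cuticle gene. The *roX* level and the testis markers were lower on average after refeeding as well, and their part in these small shifts was not tested further than by the covariate. The chaperone gene *DnaJ-1*, an Hsp40, fell from 82, 78.5, 78.6, 82.6 and 87.2 CPM to 25.9, 26.3, 27.5, 35.4 and 35.3 CPM (log2 fold change -1.45, standard error 0.0984, edgeR adjusted p = 1.14e-05) and was the only one of 10 heat shock genes called, with 2 called without refed replicate 4 or 5.

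Several of the most changed genes have no assigned function or lie outside the lists. *CG7381* fell from 1232, 1329, 974, 1557 and 1182 CPM to 113, 211, 98.2, 112 and 139.8 CPM (log2 fold change -3.22, standard error 0.219, edgeR adjusted p = 1.14e-05), and *CG13325* from 90.3, 51.6, 42.3, 32.9 and 73.1 CPM to 6.45, 2.39, 5.8, 5.86 and 15.7 CPM (-3.02, edgeR adjusted p = 0.00319). *CG14219* fell from 7.76 ± 1.79 to 1.11 ± 0.698 CPM (-2.78, edgeR adjusted p = 0.00132), and the non-coding gene *CR17024* from 5.95 ± 2.32 to 0.91 ± 0.805 CPM (-2.68, edgeR adjusted p = 0.0136). *CG3706* (-1.75, edgeR adjusted p = 0.0013), *prt*, of the vesicular transporter family (-1.62, edgeR adjusted p = 0.0118), and *MFS1*, of the major facilitator family (-1.38, edgeR adjusted p = 0.00206), fell by more than 2-fold. The tetraspanin gene *Tsp42Eb* rose from 5.6 ± 1.13 to 23.3 ± 7.74 CPM (2.06, edgeR adjusted p = 0.000616) and was the only one of 31 tetraspanins called, while another fell without low-cholesterol replicate 1 and with the *roX* covariate. The *Tsp42Eb* call was 3.23% of the list, near the 3.83% of all tested genes. *dmGlut*, a glutamate transporter gene (1.04, edgeR adjusted p = 6.8e-05), and *mfrn*, the mitoferrin gene for iron import into mitochondria (1.04, edgeR adjusted p = 0.00039), were named after their values had been seen and rose. In all, 111 of the 436 called genes belonged to a list, and 182 carried only a computed gene symbol (CG or CR).

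Some called genes adjoined one another, and no comparison with uncalled genes was made. Of the 430 called genes with coordinates, 90 lay within 5 kb of another called gene, in 41 groups. All members changed in the same direction in 28 groups and in both directions in 13, and in 7 groups the genes overlapped. The groups of 3 or more genes that rose together were *LManIII* to *LManVI*, the M28 peptidase genes *CG10062*, *CG10073* and *CG10081*, and *Tsp42Eb* with *CR42785* and *CG30160*. *CG8997*, *CG7916*, *CG7953* and *CG7968*, which follow each other on chromosome 2L (13843915 to 13850329), fell together. Their log2 fold changes were -0.71 (edgeR adjusted p = 0.00671), -0.77 (edgeR adjusted p = 0.00463), -0.54 (edgeR adjusted p = 0.0213) and -1.07 (edgeR adjusted p = 6.57e-05). *CG7968* was at 622, 561, 527, 698 and 640.3 CPM and then at 342, 271, 286, 279 and 277 CPM.

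Refeeding was also compared within the *HR3-RNAi* and *TOR-RNAi* larvae, each against its own low-cholesterol group, where 3.44% and 0.562% of the tested genes were called. The genotypes differ in the spread between pools, so these shares do not compare the sizes of the responses. No gene of 12178 differed from controls in its response at an adjusted interaction p under 0.05 in either genotype by edgeR (818 or 6.72% for *HR3-RNAi* and 1111 or 9.12% for *TOR-RNAi* at an unadjusted p under 0.05, 37 and 114 by DESeq2). For *TOR-RNAi* larvae the count was 71 without their refed replicate 4, 5 without their refed replicate 1 and 1 without control refed replicate 3. The genes of phenylalanine and tyrosine metabolism had median log2 fold changes of -0.47 in control, -0.02 in *HR3-RNAi* and -0.11 in *TOR-RNAi* larvae. *Tat* was at -0.77, 0.05 and 0.33 (edgeR interaction, adjusted p = 0.771 for *HR3-RNAi* and adjusted p = 0.388 for *TOR-RNAi*). The corresponding values of *GstZ2* were -0.47, 0.11 and -0.23 (edgeR interaction, adjusted p = 0.376 and adjusted p = 0.651). The medians of the alpha-mannosidases were 2.13, 1.82 and 1.66 in the same order. For *CG13325* the response was -3.02, -1.74 and 0.01 (edgeR interaction, adjusted p = 0.798 and adjusted p = 0.166). The response of *Npc1b* was -2.83, -2.84 and -2.50 (edgeR interaction, adjusted p = 0.994 and adjusted p = 0.684).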

How the data were processed

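RNA of 10 control libraries and 20 knockdown libraries was sequenced. Per the labels, the authors' tools were CASAVA, HISAT2, StringTie, featureCounts, DESeq2 and edgeR, and the genome build and strand setting are not given in the sources used here. The authors deposited raw read counts of 17713 features without normalization, of which 155 were unannotated loci, and FPKM values, used here only to compare levels between genes. Symbols were matched for 17252 features to the BDGP6 reference and for 59 to the study's names, and coordinates are those of BDGP6.

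Counts were tested in edgeR 4.0.16 (R 4.3.3) on the 10 control libraries with TMM normalization, filterByExpr and the quasi-likelihood test, without batch or block. Interactions were fitted on all 30 libraries. CPM were scaled by TMM. DESeq2 1.42.0, limma-voom 3.58.1, other filters and size factors, a *roX* covariate, a replicate block and leaving out libraries were alternatives, and exact tests used SciPy 1.17.1. The procedure was tested on simulated data.

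The members and lists were chosen with earlier results of these data known, and 9 lists were added to 49 after values were seen. The text names the 15 largest rises and falls without overlap at a mean log2 CPM of at least 1, up to 6 called and 3 abundant uncalled genes per list, and all sterol genes. Genes outside this rule were chosen after their values were seen. No sequences were used.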

Additional observations from a re-analysis of the deposited data

Results flagged for a closer look

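In 11 of 94 groups of 5 libraries, 1 library lay far from the other 4 by Dixon's criterion, which chance gives in about 1 of 20 groups. Among the sterol and lipase genes, *CG31091* reached 12.1 CPM in low-cholesterol replicate 1, where the other low-cholesterol libraries were at 2.54 to 5.06 CPM. *ScpX* was at 280.3 CPM in refed replicate 1 (others 223 to 236), *Npc2f* at 92.1 CPM in refed replicate 4 (others 62.9 to 70.1) and *Npc2h* at 5.82 CPM in low-cholesterol replicate 4 (others 4.14 to 4.35). *Fbp1*, the hexamerin receptor gene of the fat body, was at 562 CPM in refed replicate 3 and at 15.8 to 82.6 CPM in the other refed libraries. *Tsp42Eb* was lowest in low-cholesterol replicate 5, at 3.65 CPM (others 5.68 to 6.43). *CG14219* was at 10.9 CPM in low-cholesterol replicate 1 (others 6.44 to 7.37) and at 2.29 CPM in refed replicate 2 (others 0.576 to 1.05), and *CR17024* was at 2.32 CPM in refed replicate 2 (others 0.296 to 0.730).

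Refed replicate 2 also had a summed level of antimicrobial peptide genes of 1253 CPM, with 71.2 to 184 CPM in the other refed libraries. The summed *roX* level of refed replicate 4 was 169.9 CPM, with 10.5 to 51.8 CPM in the others.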

How the results depend on the processing

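Of the 436 genes called, DESeq2's size factors kept 419, limma-voom 421 and a fit of all 30 libraries 313. The totals were 443, 432 and 362, with 363 for no filter on low counts, 466 for a stricter filter and 306 for the *roX* covariate. The adjusted DESeq2 test gave 729 genes (441 up, 288 down) and held all 436. Without adjustment edgeR gave 1694 (1053 up, 641 down) and DESeq2 1773 (958 up, 815 down). The *roX* covariate lowered the genes that rose to 175. Leaving out 1 library gave totals of 289 to 443, with 177 to 294 up and 106 to 157 down, and the genes that rose were fewest without refed replicate 3 (177), refed replicate 1 (180.0), low-cholesterol replicate 3 (185) and refed replicate 5 (189). Of the 436 genes, 253 were called in all 10 of these fits. With the replicate number as a block, 209 genes were called (129 up, 80.0 down), 206 of them among the 436. Correlations of same-numbered deviations ran from -0.76 to 0.45 over 5 pairs, and 1 of 5 refed libraries correlated best with its own number. The labels do not say whether same-numbered samples shared more than the number, and this was not tested. The cause of these shifts in number was not tested.

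For the interaction with genotype, DESeq2 gave 37 genes for *HR3-RNAi* and 114 for *TOR-RNAi* where edgeR gave 0 for each. Leaving out each of the 30 libraries gave 0 for *HR3-RNAi* and 0 to 71 for *TOR-RNAi*. The *roX* difference ranged from -1.78 to -0.78 when 1 library was left out, with an exact permutation p of 0.0159 without refed replicate 4. Over 172 named genes, 3117 gene settings kept direction and call, 323 lost the call and 0 reversed, and 107 genes were called under every setting. The settings include the unadjusted p of the same edgeR fit, which cannot lose a call or reverse. Leaving out libraries and the *roX* and block alternatives by list were added after seeing the data. Genes under about 0.0895 to 0.152 CPM were below 3 counts, so changes there were not detectable at this depth.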
